A study of Homo sapiens with 4 samples.

Results

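Genes for non-collagen glycoproteins, proteoglycans and crosslinking enzymes of the extracellular matrix were examined in U2OS cells, a human osteosarcoma line, by array. The members were 43 genes given as a list of symbols, chosen with earlier results of these data known. For each, the array row that carried the symbol and no other was used, and a gene with several such rows was represented by the brightest of them on average. By this rule 41 members had a row, among 21469 genes in all. LAMA3 and LAMB3 had no row with their symbol alone and were not analysed here. LAMB3 had a row that also carried MIR4260, which this rule leaves out.

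The nocodazole group was U2OS cells given this microtubule-depolymerising drug for 48 h, and the DMSO group was U2OS cells given the solvent for the same time. Before that, all cells were starved of serum for 24 h, held in thymidine for 24 h and released into medium free of drug for 3 h, so the controls carry the same synchronisation. Each group had 2 arrays, numbered 2 and 3 in the titles, and RNA was taken from trypsinised cells. All titles also carry PLKO.1, whose meaning here is not stated, and a single cell line was used. Nothing in the labels says whether the replicates were separate cultures, so the p-values measure the spread between these arrays, which may be technical.

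The matrix around cells is built in layers. Laminins assemble with nidogens, perlecan and agrin into basement membranes, fibrillins, fibulins and elastin make up elastic fibres, and small leucine-rich proteoglycans bind and space collagen fibrils. Fibronectin is laid down as fibrils that cells pull on through integrins, thrombospondins and SPARC modulate how cells attach, and lysyl oxidases crosslink collagen and elastin. Osteoblast-lineage cells, from which osteosarcoma arises, secrete many of these proteins.

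The values were log2 expression as deposited by the authors, and the arrays did not share 1 distribution. The median over all genes was 5.87 and 5.68 on nocodazole replicates 2 and 3, against 6.38 and 6.06 on DMSO replicates 2 and 3. Over all genes the median change, nocodazole minus DMSO, was -0.45 as deposited and 0.00 after quantile normalization of the 4 arrays. For this reason the words rose and fell are kept for genes whose adjusted p from limma (Benjamini-Hochberg over all 21469 genes) lay under 0.05 with 1 direction on both scales. Unless stated otherwise, levels and changes are log2 values after quantile normalization, and a change is given ± its standard error (SE) from limma with 2 arrays per group. The median of 23 background control rows, 3.72 to 4.81 per array as deposited, served as the background of each array. The arrays measured RNA of whole cultures, in which fewer cells of a type and less RNA per cell cannot be told apart.

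The labelled cell type was checked against markers as deposited. VIM, the mesenchymal filament vimentin, lay at 10.1 and 10.3 with nocodazole and at 10.8 and 11.1 with DMSO, and RUNX2, the osteoblast transcription factor, lay above background on all 4 arrays. Of the osteoblast and mesenchymal markers 5 of 6 lay above background on all 4 arrays, and the bone matrix gene IBSP lay below it on all 4. Markers of other cell types were not all absent, and 16771 of all 21469 genes lay above background on all 4 arrays. Of the epithelial markers 6 of 7 lay above background on all 4 arrays (EPCAM, CDH1, KRT8, KRT18, KRT19 and CLDN4), and ESRP1, an epithelial splicing factor, lay below it on all 4. Of the haematopoietic markers 4 of 5 lay above it on all 4 arrays (CD3E, CD14, ITGAM and CSF1R), and PTPRC, the pan-leukocyte marker, lay below it on all 4. Of the endothelial markers 1 of 5, CDH5, lay above it on all 4 arrays, and EMCN lay below it on all 4. Of 6, 7, 5 and 5 measured osteoblast and mesenchymal, epithelial, endothelial and haematopoietic markers, 0 passed the test on both scales.

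Of the 41 measured members, 2 fell with nocodazole, 0 rose and 39 did not pass. The members that fell were EDIL3 and EFEMP1, 4.88% of those measured, where the share of all genes called on both scales was 0.0978% for lower and 0.149% for higher. At an unadjusted limma p under 0.05 after quantile normalization 9 of the 41 members were lower and 3 higher. Of all 21469 genes, 1084 were lower and 929 higher by that measure. As deposited, 21 members were called lower, 51.2% of them, against 24.9% of all genes. Among the 16771 genes above background on all 4 arrays, that share was 31.4%. As deposited 0 members were called higher, against 0.238% of all genes. Because the members were chosen with earlier results of these data known, the shares here and below describe the list and do not test it. The median change over the members was -0.10, with 28 values below 0 and 13 above, and the median over all genes was 0.00. Over the 37 members whose mean level exceeded the background, the median was -0.13.

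Members whose groups did not overlap were also counted. This count uses the same values as the changes above and ignores the size of the gap, so it adds no separate test. After quantile normalization both nocodazole arrays lay below both DMSO arrays for 20 members (48.8%), where 18.7% of all genes did so. They lay above both DMSO arrays for 6 members (14.6%), where 17.7% of all genes did so. The 20 included 8 of the 11 elastic fibre genes, all 3 thrombospondins and 3 of the 4 lysyl oxidases, and 0 of the 6 laminins.

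**Figure D1:**
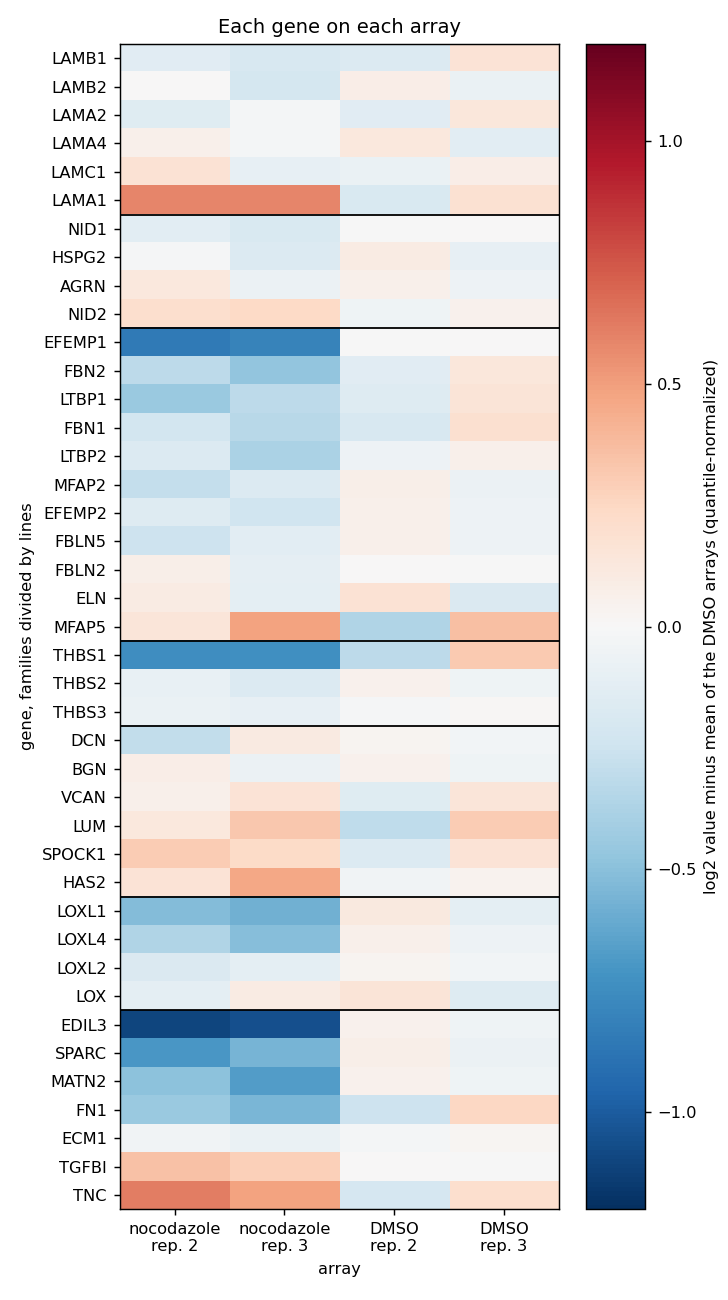
The heat map shows each of the 41 measured genes (rows, families divided by lines) on each of the 4 arrays (columns), coloured by its quantile-normalized log2 value minus the mean of the DMSO arrays. EDIL3, EFEMP1 and THBS1 are the bluest on both nocodazole arrays, and LAMA1 and TNC the reddest.

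EDIL3 encodes an integrin-binding glycoprotein with discoidin domains that was first described in endothelium and the embryo. Its level was 7.25 and 7.30 on nocodazole replicates 2 and 3, against 8.41 and 8.31 on DMSO replicates 2 and 3. All of the nocodazole values lay about a log2 unit below the DMSO values, and replicates of a group differed by less than 0.1. The change was -1.08 ± 0.12 (limma adjusted p = 0.0207), or a level of 0.473 times that with DMSO. As deposited it was -1.58 (limma adjusted p = 2.97e-08). EDIL3 remained called in a fit with the replicate number as a block (limma adjusted p = 0.0347) and was not called after median centring of the arrays, at -1.16 (limma adjusted p = 0.322), or without a trend of variance (limma adjusted p = 0.128). With any single array left out, neither EDIL3 nor EFEMP1 passed, with limma adjusted p of 0.656 to 0.897, and the change of EDIL3 ran from -1.10 to -1.05.

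EFEMP1 encodes fibulin-3, a fibulin of elastic tissues and of the retinal basement membrane. It had 7.15 and 7.20 on the nocodazole arrays, against 7.994 and 7.996 on the DMSO arrays. The gap between the groups was many times that between replicates. The change was -0.82 ± 0.12 (limma adjusted p = 0.0486), a level of 0.565 times that with DMSO, and -1.33 as deposited (limma adjusted p = 9.93e-07). This call lay just inside the threshold. It was lost with the replicate number as a block (limma adjusted p = 0.0528) and after median centring, at -0.91 (limma adjusted p = 0.516), and without a trend of variance (limma adjusted p = 0.193).

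SPARC encodes osteonectin, a collagen-binding glycoprotein that is abundant in bone. Its values were 8.98 and 9.13 with nocodazole, against 9.75 and 9.62 with DMSO. The groups did not overlap, but the change of -0.63 ± 0.11 did not pass (limma adjusted p = 0.0736). It passed, with an adjusted p of 0.0437, in a limma fit restricted to genes whose mean level exceeded the background, a fit that tests 17667 genes.

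Promoter sequence was taken from RefSeq (GRCh38.p14) for EDIL3, SPARC, THBS1 and TNC. THBS1 was the thrombospondin with the largest change, and TNC was among the members with the largest changes above 0. Of these genes only EDIL3 passed on both scales. Of the 41 measured members, 30 had an entry, and EFEMP1 and LAMA1 were among those without. Each run gives the 250 bases before the annotated start of the gene, 5′ to 3′ on the strand of the gene, and the start used in these cells is not known. The windows are chr5:84384881-84385130 (minus strand) for EDIL3, chr5:151686916-151687165 (minus strand) for SPARC, chr15:39580829-39581078 (plus strand) for THBS1 and chr9:115118158-115118407 (minus strand) for TNC. Capitals mark GGGCGG (the GC box of SP1), GGAATG (the core of TEAD sites) or CCAAT, on either strand.
EDIL3: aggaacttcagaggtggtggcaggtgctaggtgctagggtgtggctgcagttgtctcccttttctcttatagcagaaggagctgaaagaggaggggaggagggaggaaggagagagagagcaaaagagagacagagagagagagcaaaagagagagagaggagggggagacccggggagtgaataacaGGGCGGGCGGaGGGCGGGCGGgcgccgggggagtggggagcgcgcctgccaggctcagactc
SPARC: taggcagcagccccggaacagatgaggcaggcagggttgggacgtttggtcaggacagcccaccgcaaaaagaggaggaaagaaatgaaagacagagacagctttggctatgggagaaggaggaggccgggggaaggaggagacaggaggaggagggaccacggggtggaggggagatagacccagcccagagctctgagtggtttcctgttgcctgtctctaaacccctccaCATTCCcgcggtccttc
THBS1: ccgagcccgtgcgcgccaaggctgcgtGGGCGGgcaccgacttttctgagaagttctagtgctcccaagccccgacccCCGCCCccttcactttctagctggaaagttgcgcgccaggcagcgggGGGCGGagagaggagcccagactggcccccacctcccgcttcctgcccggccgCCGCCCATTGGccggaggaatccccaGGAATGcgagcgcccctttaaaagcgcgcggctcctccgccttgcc
TNC: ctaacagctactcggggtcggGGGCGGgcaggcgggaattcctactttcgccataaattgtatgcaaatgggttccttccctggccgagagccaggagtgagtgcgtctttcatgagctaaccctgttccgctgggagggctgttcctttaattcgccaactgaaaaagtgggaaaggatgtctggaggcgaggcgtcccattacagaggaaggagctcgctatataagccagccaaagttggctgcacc
EDIL3 held 4 GC boxes, 62, 58, 51 and 47 bases before the start, which overlap in pairs. SPARC held a TEAD core 17 bases before the start and THBS1 another 46 before it, beside 4 GC boxes and a CCAAT box. TNC held 1 GC box. Over windows of the same length, the GC box occurred in 73.3% of the 30 members and in 54.9% of 14658 genes on the array with an entry. The TEAD core occurred in 16.7% of the members (FBN1, LAMA2, SPARC, THBS1 and THBS2) and in 10.2% of those genes, and CCAAT in 30% and 34.6%. TGANTCA, the AP-1 site, was found in 6.67% of the members (ECM1 and MFAP2) and in 5.40% of those genes. TATAAA was found in 6.67% of the members as well (ECM1 and THBS2), and in 8.86% of those genes. These matches describe letters in the windows and not bound sites.

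**Figure D2:**
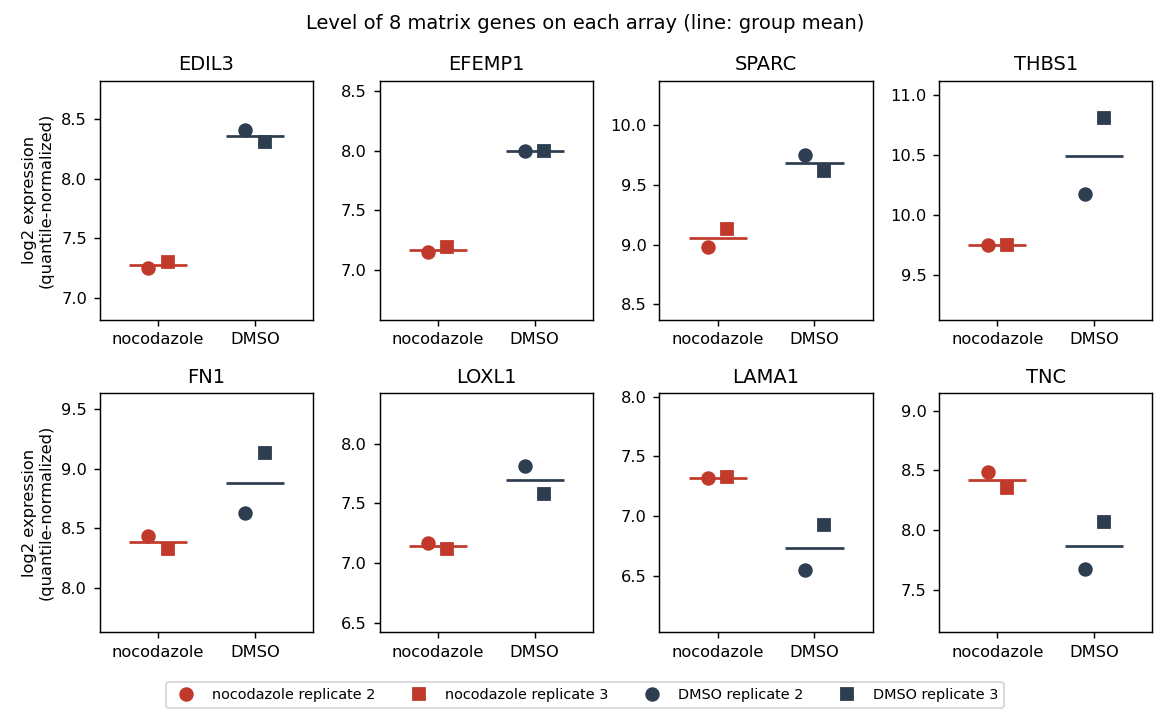
Each panel shows the quantile-normalized log2 level (vertical axis, a span of 2 log2 units) of 1 gene on the 2 nocodazole arrays (red, left) and the 2 DMSO arrays (dark, right), with a line at each group mean. In all 8 panels the groups do not overlap. EDIL3, LOXL1, THBS1, FN1, LAMA1 and TNC spread more between the DMSO arrays than between the nocodazole arrays, and EFEMP1 and SPARC do not.

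The other glycoproteins had values on both sides of 0, with a median change of -0.50 over 7 genes. Without DMSO replicate 3 that median was -0.25. FN1, fibronectin, had 8.44 and 8.33 on the nocodazole arrays, against 8.63 and 9.13 on the DMSO arrays. The DMSO arrays lay about as far from each other as the group means did, and the change of -0.50 ± 0.17 did not pass (limma adjusted p = 0.372). Without DMSO replicate 3 it was -0.25 and without DMSO replicate 2 it was -0.75. MATN2, the filament-forming adaptor matrilin-2, had 5.15 and 4.97 with nocodazole, against 5.69 and 5.59 with DMSO, a change of -0.58 ± 0.17 (limma adjusted p = 0.288). ECM1, a small secreted glycoprotein of skin and cartilage, differed by -0.06 ± 0.14.

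TNC and TGFBI had higher values with nocodazole, though neither passed. TNC encodes tenascin-C, an anti-adhesive glycoprotein of wounds and tumour stroma, and had 8.49 and 8.35 with nocodazole, against 7.67 and 8.07 with DMSO. Its groups did not overlap, and the change was 0.55 ± 0.15 (limma adjusted p = 0.263). As deposited it was 0.02. TGFBI, a collagen-binding protein induced by transforming growth factor beta, had 7.43 and 7.36 with nocodazole, against 7.08 on each DMSO array. Its change was 0.32 ± 0.12 (limma adjusted p = 0.476) and as deposited -0.17.

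The laminins, heterotrimers of an alpha, a beta and a gamma chain, had a median change of -0.04 over 6 measured genes, and 0 of them passed. The sign of the median depended on the arrays, with values of -0.06 without nocodazole replicate 2 and 0.02 without nocodazole replicate 3 or DMSO replicate 3. LAMA1, the alpha 1 chain of early embryonic and epithelial basement membranes, stood apart from the other 5 measured laminins. It had 7.32 on each nocodazole array, against 6.55 and 6.92 on DMSO replicates 2 and 3. Its groups did not overlap, and the change of 0.59 ± 0.16 did not pass (limma adjusted p = 0.249). As deposited it was 0.08. LAMB1 and LAMC1, the widely used beta 1 and gamma 1 chains, differed by -0.17 ± 0.14 and 0.04 ± 0.13. LAMB2, the beta 2 chain of kidney and synapse, differed by -0.11 ± 0.15 and LAMA2, the alpha 2 chain of muscle, by -0.09 ± 0.19. LAMA4, an alpha chain of vessels, lay below the background median on 3 of the 4 arrays. LAMA2 lay close to that median on the replicate 2 arrays, as deposited. It had 4.49 against a background of 4.36 with nocodazole, and 5.00 against 4.81 with DMSO. The row that LAMB3 shares with MIR4260 had 8.36 and 8.42 as deposited on nocodazole replicates 2 and 3. On DMSO replicates 2 and 3 that row had 7.91 and 8.36, and its change was not tested.

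The linkers of the basement membrane did not pass either, with a median of -0.03 over 4 genes that ran from -0.12 without nocodazole replicate 2 to 0.054 without nocodazole replicate 3. NID1, which bridges laminin and type IV collagen, differed by -0.15 ± 0.12, and its paralogue NID2 by 0.22 ± 0.16. The replicates of NID1 were close, at 7.10 and 7.05 with nocodazole against 7.22 and 7.24 with DMSO, and those of NID2 too, at 5.63 and 5.66 against 5.37 and 5.47 in the same order. HSPG2, the heparan sulfate proteoglycan perlecan, and AGRN, agrin, differed by -0.09 ± 0.14 and 0.03 ± 0.13. NID1, HSPG2 and AGRN were called lower as deposited, as were LAMB1, LAMB2 and LAMC1. On that scale 24.9% of all genes were, and 31.4% of those above background on all 4 arrays. AGRN and LAMC1 had changes of -0.48 and -0.49 there, of opposite sign to those after normalization.

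Elastic fibre genes had a median change of -0.22, and 10 of 11 values lay below 0. Those included ELN and FBLN2, at -0.01 and -0.02, whose signs depended on the array left out. Only EFEMP1 of the 11 passed on both scales, and 6 (54.5%) were called lower as deposited. That held for 24.9% of all genes and 31.4% of those above background on all 4 arrays. FBN2, a fibrillin of developing microfibrils, had 6.79 and 6.63 with nocodazole, against 6.97 and 7.24 with DMSO, a change of -0.39 ± 0.15 (limma adjusted p = 0.462). FBN1, the main fibrillin of adult tissue, had 5.28 and 5.17 with nocodazole, against 5.31 and 5.69 with DMSO, a change of -0.28 ± 0.19. Without DMSO replicate 3 it was -0.08 and without DMSO replicate 2 it was -0.48. LTBP1 and LTBP2, which belong to the latent TGF-beta binding protein family and associate with fibrillin, differed by -0.38 ± 0.17 and -0.27 ± 0.14 (limma adjusted p = 0.537 and 0.625).

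The other 3 fibulins did not pass. EFEMP2, fibulin-4, which brings lysyl oxidase to elastin, differed by -0.19 ± 0.11. FBLN5, which links elastic fibres to cells, differed by -0.19 ± 0.16, and FBLN2, a fibulin of the heart valves and vessel wall, by -0.02 ± 0.15. ELN, elastin itself, had 6.90 and 6.69 with nocodazole against 6.97 and 6.63 with DMSO, so that its groups overlapped fully. MFAP2 and MFAP5 are microfibril-associated glycoproteins. MFAP2 differed by -0.22 ± 0.12. MFAP5 was the 1 member of this family with a change above 0, at 0.31 ± 0.24. It had 7.25 and 7.58 with nocodazole, against 6.74 and 7.46 with DMSO, so that its groups overlapped.

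**Figure D3:**
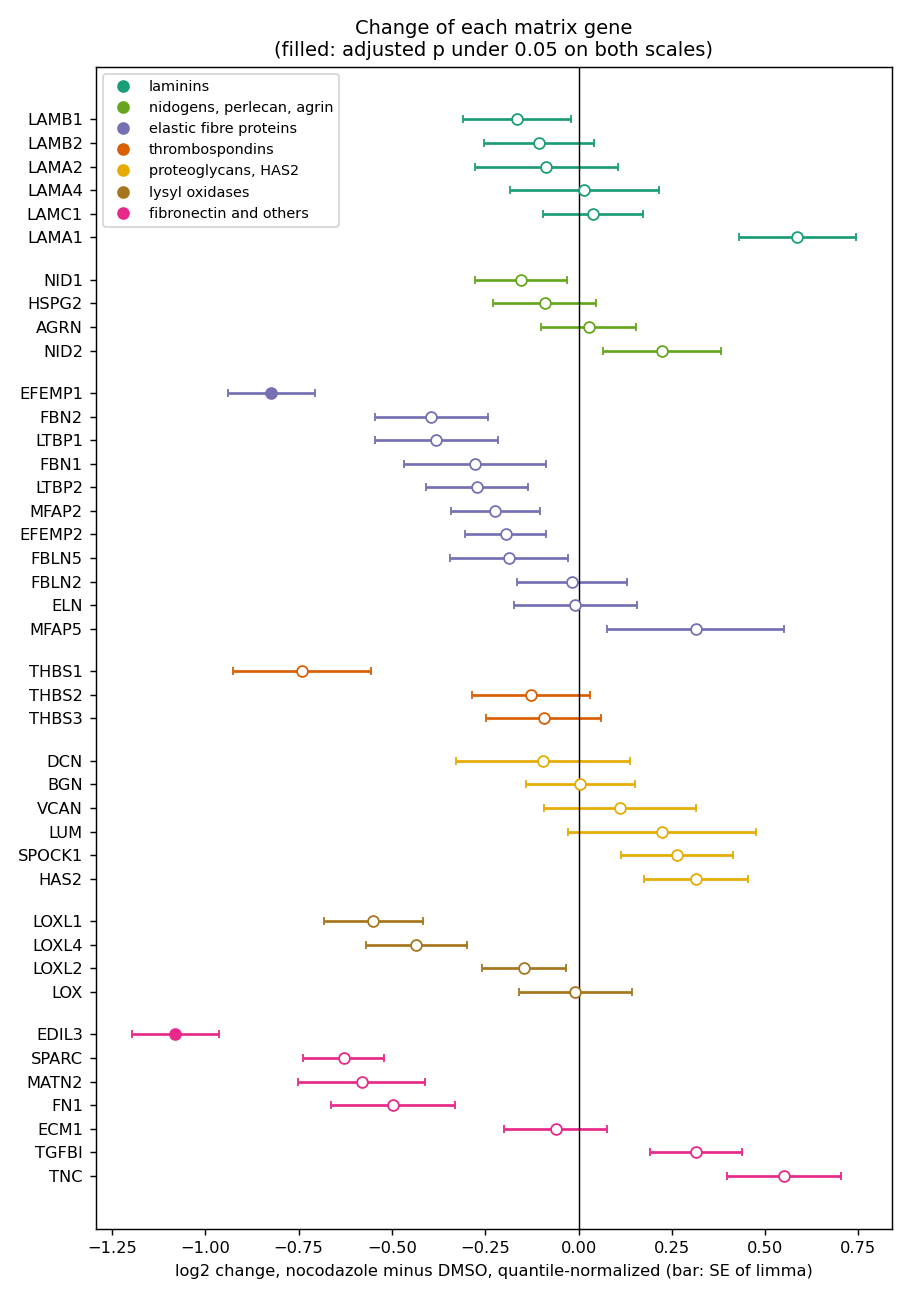
Points give the quantile-normalized log2 change, nocodazole minus DMSO, of each of the 41 genes (horizontal axis) by family, with bars of 1 SE of limma, and filled points passed on both scales. EDIL3 at -1.08 and EFEMP1 at -0.82 are the filled points, and all 3 thrombospondins lie below 0, while LOX lies at -0.01 with a bar that spans 0.

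All 3 thrombospondins lay below 0. THBS1, a large trimeric glycoprotein that activates latent TGF-beta and restrains vessel growth, had 9.75 on each nocodazole array, against 10.18 and 10.81 on DMSO replicates 2 and 3. Every nocodazole value lay below every DMSO value, and the DMSO arrays differed from each other by almost as much as the groups did. The change of -0.74 ± 0.18 did not pass (limma adjusted p = 0.214), although as deposited it was -1.23 (limma adjusted p = 0.000228). Without DMSO replicate 3 the change was -0.42, and without DMSO replicate 2 it was -1.08. THBS2 and THBS3, a second trimeric and a pentameric thrombospondin, differed by -0.13 ± 0.16 and -0.09 ± 0.15.

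Lysyl oxidases had a median change of -0.29, and 0 of 4 passed on both scales. As deposited all 4 were called lower, on a scale where 24.9% of all genes and 31.4% of those above background on all 4 arrays were. LOXL1, which is needed for the upkeep of elastic fibres, had 7.17 and 7.12 with nocodazole, against 7.81 and 7.58 with DMSO, a change of -0.55 ± 0.13 (limma adjusted p = 0.204). LOXL4 had 6.85 and 6.70 with nocodazole, against 7.27 and 7.15 with DMSO, a change of -0.43 ± 0.14 (limma adjusted p = 0.327). The groups of both genes were apart by more than their replicates. LOXL2, which crosslinks type IV collagen, differed by -0.15 ± 0.11. LOX, the founding enzyme of the family, had 7.49 and 7.70 with nocodazole, against 7.76 and 7.45 with DMSO, and its groups overlapped. Its change was -0.01 ± 0.15, and was 0.15 without DMSO replicate 2 and 0.10 without nocodazole replicate 2.

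The proteoglycans and the hyaluronan synthase had a median change of 0.17, and 5 of 6 values lay above 0. Those included BGN, at 0.00 when rounded, and LUM and VCAN, which lay below background on 2 arrays each. The value below 0 was that of DCN, which lay below background on all 4 arrays. Leaving out DMSO replicate 2 gave a median of 0.014, and leaving out DMSO replicate 3 gave 0.30. None passed on either scale, with unadjusted p under 0.05 after quantile normalization for 0 of 6. HAS2, which makes the long chains of hyaluronan, had 7.74 and 8.03 with nocodazole, against 7.53 and 7.62 with DMSO, a change of 0.32 ± 0.14 (limma adjusted p = 0.547). SPOCK1, a testican that carries heparan and chondroitin sulfate, had 7.26 and 7.18 with nocodazole, against 6.80 and 7.12 with DMSO, a change of 0.26 ± 0.15. Both had changes below 0 as deposited, at -0.18 and -0.24. BGN, biglycan, differed by 0.00 ± 0.15.

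The remaining proteoglycans were at or near background. DCN, decorin, which binds collagen fibrils and TGF-beta, lay below the background median on all 4 arrays. Its value of -0.10 ± 0.23 is not read as a change, though it counts in the medians and signs given here. With the mean of a gene's rows the value of DCN was 0.28. LUM, lumican of cornea and connective tissue, and VCAN, versican, the large hyaluronan-binding proteoglycan, lay below the background median on 2 arrays each. LUM differed by 0.22 ± 0.25 and VCAN by 0.11 ± 0.20, but by -0.08 and -0.03 once DMSO replicate 2 was left out. In all, 37 of the 41 members lay above background on all 4 arrays, as did 16771 of all 21469 genes.

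**Figure D4:**
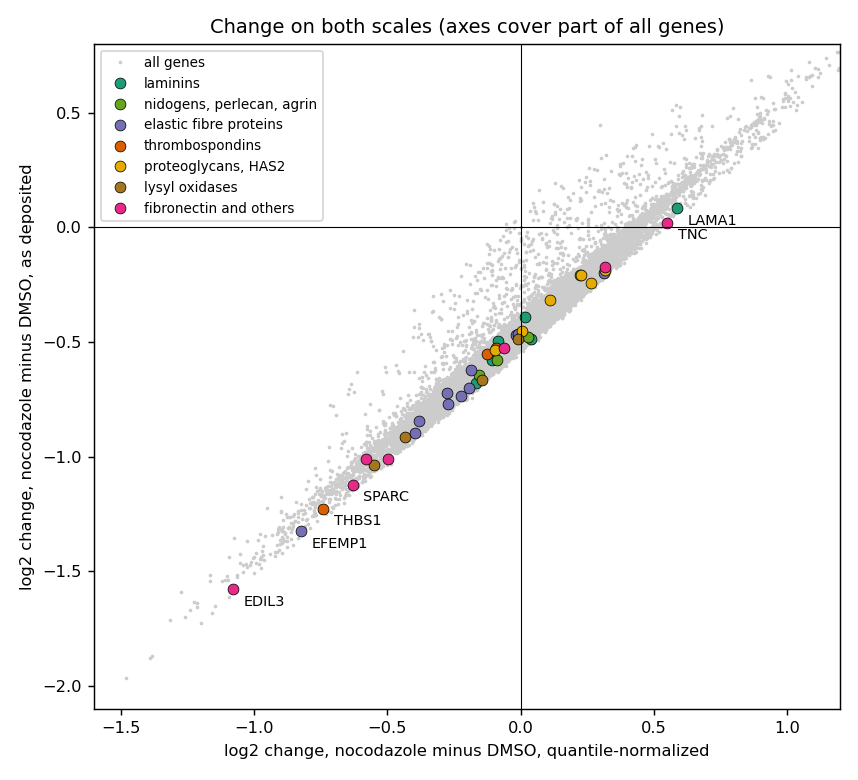
Each point is a gene, with its log2 change (nocodazole minus DMSO) after quantile normalization on the horizontal axis and as deposited on the vertical axis, all genes in grey and the 41 members coloured by family, over axes that leave out part of all genes. The cloud runs below the origin, with a median of all genes of -0.45 as deposited, and LAMA1 and TNC are the 2 members above 0 on both axes.

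Further matrix genes outside the 43 were read from lists of other members of the same families. Of 85 measured genes in 6 lists, 0 were called higher and 0 lower on both scales. As deposited 27 (31.8%) were called lower, against 24.9% of all genes and 31.4% of those above background on all 4 arrays. Of the 85, 67 lay above background on all 4 arrays. Among 11 other laminin and basement membrane genes, NTN4, a laminin-related netrin, had the largest change above background, at -0.44 ± 0.17 (limma adjusted p = 0.480). MFAP4 held that place among 10 other elastic fibre genes, at -0.23 ± 0.18, and CCN3, a matricellular protein, among 22 other thrombospondins and glycoproteins, at 0.32 ± 0.17.

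HAPLN1, the link protein that ties proteoglycans to hyaluronan, had the largest change among 19 other proteoglycan and hyaluronan genes. It had 4.68 and 4.64 with nocodazole, against 5.68 and 5.42 with DMSO, a change of -0.89 ± 0.18 that did not pass (limma adjusted p = 0.115). PLOD2, a lysyl hydroxylase that prepares collagen for crosslinking, had 0.54 ± 0.14 (limma adjusted p = 0.241), the largest among 13 other collagen-modifying enzymes, and 0.03 as deposited. HMMR, a hyaluronan-binding protein that also sits on the mitotic spindle, had -0.66 ± 0.17 (limma adjusted p = 0.241) among 10 measured matrix receptors outside the integrins.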

How the data were processed

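RNA of U2OS cells was measured on the Affymetrix Human Transcriptome Array 2.0, 2 arrays with nocodazole and 2 with DMSO. The values deposited by the authors are log2 expression, 1 per array row, and the submitters' processing notes name Partek 7.0, RMA and hg19, without settings. On an array, 3991 to 5180 distinct values served 21469 genes, so that most genes share their value with another. The table held 65535 rows, 1530 of them controls. Of the others, 21771 had 1 symbol in the platform annotation, 1328 several and 40906 none.

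The test was limma 3.58.1 in R 4.3.3 (lmFit, eBayes with trend), two-sided, across all genes, once on values as deposited and once following quantile normalization (normalizeQuantiles), without a block. It was also run on simulated arrays with independent noise and no effect of replicate number. That run cannot show how the test does on arrays that deviate together. All members were named, and outside them the genes called, or else the largest change above background, of each list. Alternatives were scale, variance model, replicate block, dim genes, a gene's rows and arrays left out. The number of arrays limits the precision. Members and lists were chosen with earlier results of these data known.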

Additional observations from a re-analysis of the deposited data

How the results depend on the processing

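Members called lower numbered 2 with quantile-normalized values alone, robust eBayes and the mean of a gene's rows. They numbered 21 as deposited, 3 without dim genes, 1 with the replicate number as a block, and 0 after median centring and without a trend of variance; 0 were called higher under any of these. All genes called higher numbered 32, and 51 as deposited, 19 after median centring and 1 without a trend. All genes called lower numbered 21, and 5341 as deposited, 1 after median centring, 0 without a trend, 69 without dim genes and 11 with the replicate block. Leaving out each array in turn gave 0 calls on both scales by limma, among all genes and among the members. A group is then a single array, assumed to vary like the other. The changes of EDIL3 and EFEMP1 kept unadjusted p-values under 0.05 on both scales in those fits, at -1.10 to -1.05 and -0.84 to -0.79.

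Of the 41 members, 27 kept the sign of their change whichever array was left out. As deposited, LAMC1 (-0.49) and AGRN (-0.48) were called with the opposite sign, where the median of all genes was -0.45. Medians as deposited were -0.55 for all members, -0.49 for laminins, -0.53 for nidogens, perlecan and agrin, -0.72 for elastic fibre genes, -0.55 for thrombospondins, -0.28 for proteoglycans and HAS2, -0.79 for lysyl oxidases and -1.01 for the other glycoproteins. After median centring the median of nidogens, perlecan and agrin was -0.11. The median of proteoglycans and HAS2 was 0.26 without dim genes and 0.25 (rounded from 0.245) with the mean of a gene's rows. With arrays left out in turn, medians ran from -0.06 to 0.02 for laminins, -0.12 to 0.054 for nidogens, perlecan and agrin, -0.18 to -0.083 for thrombospondins, 0.014 to 0.30 for proteoglycans and HAS2, and -0.56 to -0.25 for the other glycoproteins. Causes of other differences were not tested.

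The numbers 2 and 3 do not pair the arrays by the labels. Deviations of same-numbered arrays from their group means correlated across genes at 0.22 after quantile normalization and at 0.41 as deposited. With 2 arrays per group, an exact permutation test of a single value cannot go below a two-sided p of 0.333.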

Other observations

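On the GRCh38.p14 assembly of the RefSeq table, VCAN, HAPLN1 and EDIL3 are neighbouring protein-coding genes on chromosome 5. HAPLN1 and EDIL3 had the changes of -0.89 and -1.08 given above. Their other measured neighbours had changes of 0.11 ± 0.20 for VCAN, which is dim, 0.02 ± 0.14 for XRCC4, a DNA-repair gene on the far side of VCAN, and 0.07 ± 0.19 for CCNH, a cyclin gene beyond EDIL3. COX7C and RASA1, between EDIL3 and CCNH, had no row with their symbol alone. Around EFEMP1 on chromosome 2, CCDC85A, VRK2 and FANCL had -0.42 ± 0.20, -0.32 ± 0.12 and -0.31 ± 0.22 on one side, and PNPT1, PPP4R3B and CFAP36 had 0.11 ± 0.13, -0.11 ± 0.17 and 0.08 ± 0.18 on the other. None of the neighbours of EDIL3 and EFEMP1 given here passed the test, and the pattern was seen after the values were known.

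Among the markers, RUNX2, ALPL and SPP1, all of the osteoblast lineage, had changes of -0.45, 0.43 and 0.93 after quantile normalization. Their limma adjusted p-values were 0.431, 0.319 and 0.298. As deposited, SPP1 had 5.70 and 6.31 on DMSO replicates 2 and 3. Of the 6 measured osteoblast and mesenchymal markers, 3 had changes below 0 and 3 above.

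Many genes shared their deposited value to 6 decimals with another gene of the same array. This held for 89.0% and 89.1% of genes on nocodazole replicates 2 and 3, and for 85.7% and 85.5% on DMSO replicates 2 and 3. Of the 41 members, 37, 36, 34 and 35 did so on these arrays in that order.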
